A study of Mus musculus with 10 samples.

Results

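The 34 genes described here encode the machinery that copies the genome, and they were followed through the first 96 h of induced reprogramming of mouse fibroblasts. They were listed by symbol and grouped by role into 11 licensing genes, 13 genes of the replication fork, 5 polymerase and primase subunits, and 5 genes of nucleotide supply. All 34 were found among the 18193 genes measured, each represented by its brightest probe set on average over the 10 arrays. Total RNA was hybridised to Affymetrix arrays, 2 for each of 5 groups. All cells were secondary inducible mouse embryonic fibroblasts (MEFs) of a 129/SvJ x C57/B6 hybrid strain, grown in 10% fetal bovine serum before treatment. Such cells carry transgenes for the factors Oct4, Sox2, Klf4 and Myc under a promoter that doxycycline switches on. The control cells were not induced and were starved in 0.5% serum for 96 h. The other groups were induced for 96 h with doxycycline, labelled as 2 µg/µl, in 15% serum. Their labels give 4 cohorts by mean number of cell divisions, namely 0, 1, 2, and 3 or more. The way of sorting cells into cohorts was not stated in the labels. Induction and serum differ between the control and each cohort, the labels give the control no number of divisions, and these factors cannot be told apart in those comparisons, whereas the cohorts share agent, dose, serum and time.

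A cell copies its DNA once per cycle by first licensing its origins and then firing them. In G1 the origin recognition complex, with Cdc6 and Cdt1, loads the ring of Mcm2 to Mcm7 onto DNA, and geminin (Gmnn) blocks Cdt1 once S phase has begun. Cdc45 and the GINS complex then turn the ring into the active helicase, polymerases alpha, delta and epsilon copy the strands with the clamp Pcna and its loader, and ribonucleotide reductase with thymidylate enzymes supplies the building blocks. In cells without growth signals many of these genes are held down by pocket proteins bound to E2F factors, which read a short GC-rich element in their promoters.

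The promoters of the 5 members with the largest rise after 3 or more divisions are shown first because they hold that element, with those of 2 members for contrast, chosen after their values were seen. RefSeq promoter windows on GRCm38.p6, running from 250 bases before to 50 after the annotated start, were on hand for 29 of the 34 genes, with more than 1 window for 3 of them. The letters searched, on both strands, were TTCCCGC or TTCGCGC or else TTGCCGC or TTGGCGC, called the E2F core here. Capitals mark each match, and the sequences run 5′ to 3′ along the gene's strand.
Cdt1 (chr8:122567765-122568064, plus strand): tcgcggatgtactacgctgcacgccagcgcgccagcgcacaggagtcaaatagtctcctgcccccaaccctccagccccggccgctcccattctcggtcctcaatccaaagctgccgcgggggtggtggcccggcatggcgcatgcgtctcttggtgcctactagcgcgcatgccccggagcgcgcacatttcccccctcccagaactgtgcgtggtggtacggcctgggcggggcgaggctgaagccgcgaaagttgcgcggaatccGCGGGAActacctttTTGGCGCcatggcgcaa
Mcm5 (chr8:75109259-75109558, plus strand): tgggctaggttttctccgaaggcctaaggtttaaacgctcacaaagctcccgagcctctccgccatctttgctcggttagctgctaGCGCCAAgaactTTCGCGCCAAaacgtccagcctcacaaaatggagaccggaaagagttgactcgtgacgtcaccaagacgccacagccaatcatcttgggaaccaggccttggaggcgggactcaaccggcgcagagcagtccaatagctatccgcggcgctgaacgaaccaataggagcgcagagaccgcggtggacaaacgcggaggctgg
Mcm6 (chr1:128359656-128359955, minus strand): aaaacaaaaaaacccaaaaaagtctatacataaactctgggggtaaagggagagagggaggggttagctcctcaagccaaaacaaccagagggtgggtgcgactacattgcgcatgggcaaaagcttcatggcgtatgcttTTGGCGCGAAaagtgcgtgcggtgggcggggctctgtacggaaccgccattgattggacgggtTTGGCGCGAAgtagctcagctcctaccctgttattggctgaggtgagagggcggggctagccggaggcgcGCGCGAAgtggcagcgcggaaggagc
Cdc6 (chr11:98907901-98908200, plus strand): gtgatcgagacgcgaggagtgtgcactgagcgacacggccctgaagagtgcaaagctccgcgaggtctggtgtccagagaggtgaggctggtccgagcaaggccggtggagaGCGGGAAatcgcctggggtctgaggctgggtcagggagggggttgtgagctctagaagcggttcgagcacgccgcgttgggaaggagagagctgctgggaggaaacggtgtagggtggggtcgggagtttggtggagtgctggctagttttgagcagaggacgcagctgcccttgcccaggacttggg
Pola1 (chrX:93632106-93632405, minus strand): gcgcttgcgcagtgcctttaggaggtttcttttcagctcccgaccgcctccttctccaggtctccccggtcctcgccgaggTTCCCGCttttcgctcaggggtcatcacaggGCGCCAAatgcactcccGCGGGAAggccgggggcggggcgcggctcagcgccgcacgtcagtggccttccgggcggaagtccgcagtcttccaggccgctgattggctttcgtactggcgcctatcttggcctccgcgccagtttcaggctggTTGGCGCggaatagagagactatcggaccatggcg
The matches in Cdt1 began 19 and 34 bases into the transcript, and those in Mcm5 lay 164, 152 and 149 bases before the start. In Mcm6 a pair of overlapping matches began 109 bases before the start and another pair 46 bases before it, with a further match beginning 25 bases into the transcript. Cdc6 held 1 match, 138 bases before the start. Pola1 held 3 matches before the start, the nearest of them 121 bases away, and another after it. Dut, the next largest rise, had no match in its window, and Gins3, which was not called, had one that began 41 bases before the start.
Dut (chr2:125247265-125247564, plus strand): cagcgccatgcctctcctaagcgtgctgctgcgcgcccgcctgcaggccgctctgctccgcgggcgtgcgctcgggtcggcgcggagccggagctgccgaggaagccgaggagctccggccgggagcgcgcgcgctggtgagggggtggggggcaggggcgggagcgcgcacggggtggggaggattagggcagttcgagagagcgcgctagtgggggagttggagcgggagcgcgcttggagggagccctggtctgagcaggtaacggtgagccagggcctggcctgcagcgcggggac
Gins3 (chr8:95633309-95633608, plus strand): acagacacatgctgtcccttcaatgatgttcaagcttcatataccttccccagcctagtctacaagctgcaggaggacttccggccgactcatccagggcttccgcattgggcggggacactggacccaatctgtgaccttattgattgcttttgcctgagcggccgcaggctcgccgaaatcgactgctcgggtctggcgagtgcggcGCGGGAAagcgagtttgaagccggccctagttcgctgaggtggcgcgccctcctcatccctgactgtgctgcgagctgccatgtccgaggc
At least one E2F core was found in 19 of the 29 genes (65.5%), against 10.9% of the 27025 genes and 9.57% of the 32851 windows of the same length in the reference. By role these were 7 of 9 licensing genes, 6 of 11 fork genes, 4 of 4 polymerase genes and 2 of 5 nucleotide genes. The CCAAT box, searched as CCAAT on both strands, lay in 18 of the 29 (62.1%) against 41.1% of all genes (37.4% of windows), and it shared bases with an E2F core in 2 genes. The CHR element of later cell-cycle genes, searched as TTTGAA on both strands, lay in 4 of the 29 (13.8%) against 20.2% of all genes (17.9% of windows). Among the genes that rose in the comparison of 3 or more divisions with the control, described next, 14 of 21 held an E2F core, and among those not called 5 of 8 did. A match describes letters in the window and is not a measurement of binding.

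Values are log2 of the deposited intensity after quantile normalization, and each is given for replicate 1 and then replicate 2. A gene was called where limma's two-sided adjusted p, by Benjamini-Hochberg over all 18193 genes, was under 0.05. Samples are labelled as biological replicates for the starved cells and for 3 or more divisions, and as plain replicates elsewhere, with no mention of separate cultures or animals, so the p-values measure the spread between these samples, which may be technical. Arrays of the starved cells and of 3 or more divisions were registered together as an earlier set of 4, and those of 0, 1 and 2 divisions as a later set of 6. Set and group therefore cannot be told apart where 0, 1 or 2 divisions are set against the control or against 3 or more. Array medians of the deposited intensity lay between 31.42 and 33.95. The difference between the 3′ and 5′ control probe sets of Gapdh, a sign of RNA quality, was 0.27 and 0.26 after 3 or more divisions, against 0.06 and 0.03 in the control. For Actb it was 0.49 and 0.50 against 0.26 and 0.26. The summed intensity of 12 fibroblast markers was 99060 and 84422 in that cohort, against 151863 and 145507 in the control, with 7 of the 12 lower and none higher, and the fibroblast gene Vim was bright in both. The summed intensity of 10 epithelial markers was 5485 and 6296 against 251 and 284, with 4 of the 10 higher and Epcam, a defining one, not called. The sums were 492 and 434 against 279 and 274 for 8 macrophage markers, with Cd68 higher and Lyz2 lower. They were 430 and 493 against 289 and 689 for 8 endothelial markers, with Tek higher and Kdr and Flt1 lower. In RNA from a mixture of cells, a larger share of cells in S phase and more RNA per cell cannot be told apart, and the part that RNA quality or cell makeup has in the results below was not tested.

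Replication genes were higher as a group in the cohort of 3 or more divisions than in the starved control. Of the 34, 24 rose and none fell, against 15.9% of all genes called higher and 11.7% called lower. A fit with the replicate number as a block called 29 higher, against 20.4% of all genes. Their median log2 change was 1.41, against 0.02 over all genes, and 33 of 34 changes were above 0, against 52.8% of all genes. In 32 genes both arrays of the cohort lay above both control arrays, which held for 34.6% of all genes. The licensing genes Cdt1, Mcm5, Mcm6 and Cdc6, the fork gene Mcm10, the polymerase gene Pola1 and the nucleotide genes Dut and Tk1 were over 4-fold higher. The 10 genes not called were Orc1, Mcm4, Gins2, Gins3, Pcna, Rfc3, Rpa1, Rpa2, Prim1 and Tyms.

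**Figure D1:**
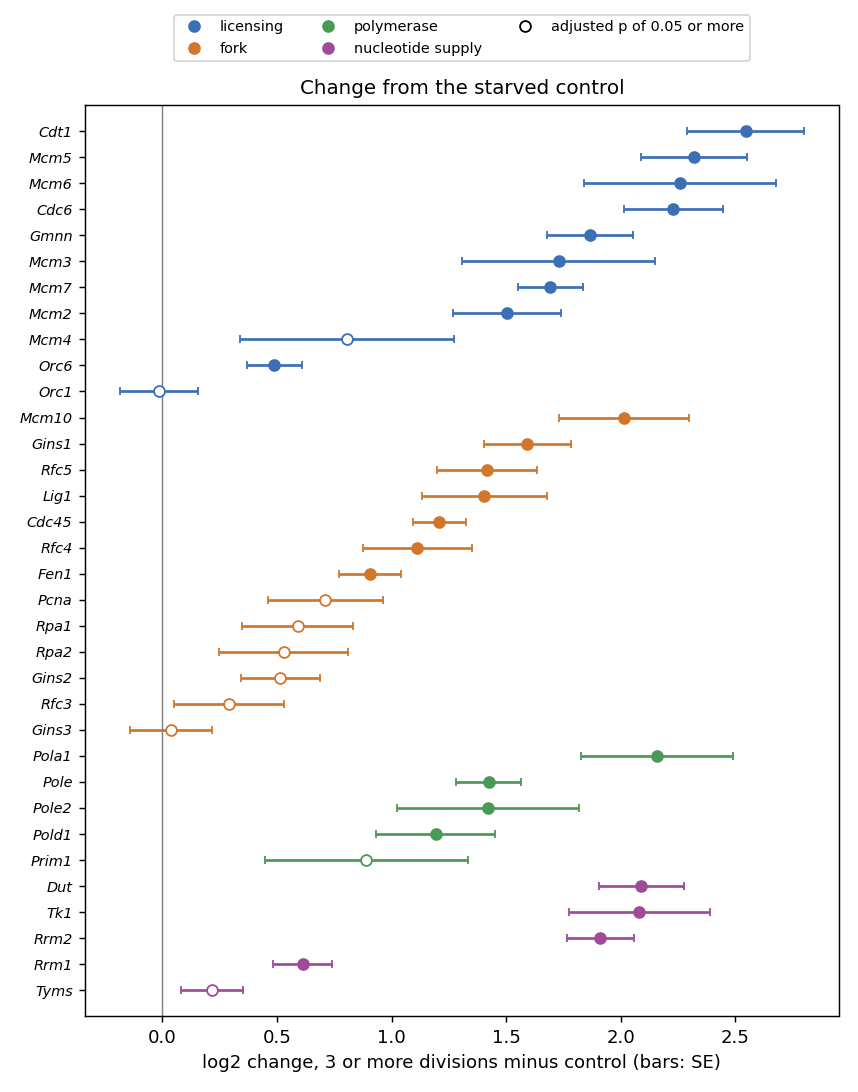
Change of each of the 34 genes, 3 or more divisions minus the starved control, as log2 difference of 2 arrays against 2. Bars are the standard error of the limma fit, colours mark the roles, and open points were not called. The points run from -0.02 for Orc1 to 2.55 for Cdt1, and Orc1 is the only gene left of 0.

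The 4 largest changes were those of licensing genes, of which 9 of 11 were called higher with a median of 1.73. Cdt1, which brings the Mcm ring to the origin, was at 8.35 and 7.71 in the control, 9.43 and 9.07 after 0 divisions, 9.35 and 8.87 after 1, 9.52 and 9.47 after 2, and 10.41 and 10.74 after 3 or more. All induced arrays lay above both control arrays, and both arrays of 3 or more divisions lay above the rest. Its change from the control to 3 or more divisions was 2.55 ± 0.25 on the log2 scale (SE, 5.84-fold, adjusted p = 0.000501). Cdc6, the ATPase that works with Cdt1 in loading, was at 5.40 and 4.88 in the control, 6.37 and 6.0 after 0 divisions, 6.32 and 6.08 after 1, 6.36 and 6.41 after 2, and 7.19 and 7.55 after 3 or more. Again the cohort of 3 or more stood above every other array, and the change was 2.23 ± 0.22 (SE, 4.69-fold, adjusted p = 0.000453). Gmnn, the inhibitor of Cdt1, rose alongside it, at 7.66 and 7.98 after 3 or more divisions against 6.11 and 5.79 in the control, by 1.87 ± 0.19 (SE, 3.64-fold, adjusted p = 0.000501).

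Within the Mcm ring, 5 of the 6 subunits rose after 3 or more divisions, by 2.32 for Mcm5, 2.26 for Mcm6, 1.73 for Mcm3, 1.69 for Mcm7 and 1.5 for Mcm2. The call of Mcm3 was lost without replicate 2 of the control or without either array of the cohort. Mcm5 was at 7.51 and 6.91 in the control, 8.65 and 8.47 after 0 divisions, 8.58 and 8.11 after 1, 8.80 and 8.64 after 2, and 9.38 and 9.67 after 3 or more. Its control arrays lay below all others and its arrays of 3 or more divisions above all others (adjusted p = 0.000501). Mcm7 was at 10.15 and 10.13 in the control, 11.18 and 11.06 after 0 divisions, 11.31 and 11.13 after 1, 11.21 and 11.46 after 2, and 11.70 and 11.96 after 3 or more. Its control arrays were close to each other and below all others (1.69 ± 0.14 after 3 or more, SE, adjusted p = 0.000296). Mcm4 was the subunit that was not called. It was at 9.81 and 9.65 after 3 or more divisions, against 9.38 and 8.47 in the control, a change of 0.80 ± 0.47 (SE) with an adjusted p of 0.257, and of 0.0185 when the replicate number entered as a block.

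Orc1 and Orc6, the origin recognition subunits among the 11 licensing genes, moved least of these on the probe sets used. Orc6 rose by 0.49 ± 0.12 (SE, adjusted p = 0.0184), with 8.16 and 8.28 after 3 or more divisions against 7.86 and 7.61 in the control, a call that was lost without replicate 2 of either group. Orc1, the largest subunit, was at 6.24 and 6.03 in the control, 5.87 and 5.76 after 0 divisions, 6.03 and 5.83 after 1, 5.75 and 6.03 after 2, and 5.93 and 6.30 after 3 or more. The arrays of 3 or more divisions overlapped the control, those of 0 divisions lay below it, and the change of -0.02 ± 0.17 (SE, adjusted p = 0.959) had either sign depending on the scaling. The reading of Orc1 depends on its probe set. A dimmer one read 4.41 and 3.97 in the control, 4.89 and 4.88 after 0 divisions, 5.01 and 4.97 after 1, 5.50 and 4.92 after 2, and 6.36 and 6.77 after 3 or more. There both arrays of 3 or more divisions lay above all others, and the change was 2.37 ± 0.23 (SE, adjusted p = 0.000465 over 34945 probe sets).

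**Figure D2:**
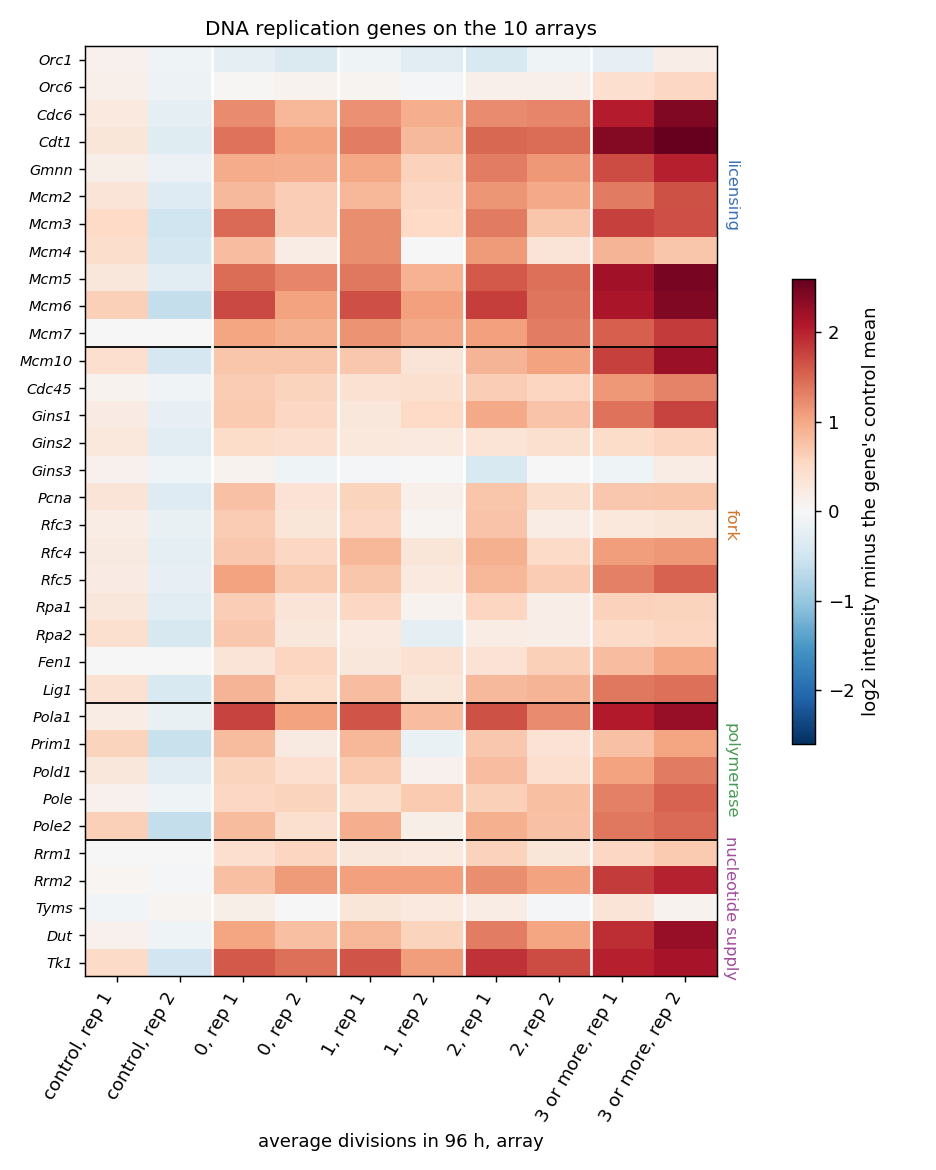
Log2 intensity of the 34 genes on each of the 10 arrays, minus the mean of the gene's 2 control arrays, with genes in rows by role and arrays in columns by average divisions. The rows of Cdt1, Mcm5, Mcm6 and Cdc6 darken most in the columns of 3 or more divisions, and the rows of Orc1, Gins3 and Tyms stay pale.

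At the fork 7 of 13 genes were called higher after 3 or more divisions, with a median change of 0.91. The called genes were Mcm10, Cdc45, Gins1, Rfc4, Rfc5, Fen1 and Lig1. Mcm10, which helps the loaded helicase start, was at 6.04 and 5.17 in the control, 6.33 and 6.32 after 0 divisions, 6.29 and 5.94 after 1, 6.48 and 6.64 after 2, and 7.39 and 7.84 after 3 or more. Both arrays of 3 or more divisions lay above all others, by 2.01 ± 0.28 over the control on average (SE, 4.04-fold, adjusted p = 0.00172). The probe set behind the Mcm10 value carries the platform's mark for probes that can match several transcripts. With unmarked probe sets alone the change was 0.17 (adjusted p = 0.599). The unmarked Mcm10 probe set was dim, with a mean of 4.12, unlike the marked one used above. Its mark is the ending _a_at, which the probe sets used for Cdt1, Cdc6, Pole and Dut, among others, carry too. Other kinds of mark are _s_at, as for Mcm7, and _x_at, as for Mcm5 and Rrm2. Unmarked probe sets carry none of these endings.

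Cdc45 and the GINS complex, partners of the Mcm ring in the helicase, gave a mixed picture. Cdc45 was at 5.86 and 5.67 in the control, 6.42 and 6.34 after 0 divisions, 6.16 and 6.18 after 1, 6.41 and 6.32 after 2, and 6.90 and 7.04 after 3 or more. Replicates were close in every group and the change was 1.21 ± 0.12 (SE, 2.31-fold, adjusted p = 0.000445). Gins1 was at 5.95 and 5.52 in the control, 6.43 and 6.27 after 0 divisions, 6.04 and 6.26 after 1, 6.71 and 6.49 after 2, and 7.16 and 7.50 after 3 or more, with the last cohort above all others (1.59 ± 0.19, SE, adjusted p = 0.000905). Gins3, a subunit of the same complex, was at 5.76 and 5.52 in the control, 5.73 and 5.53 after 0 divisions, 5.60 and 5.62 after 1, 5.23 and 5.64 after 2, and 5.52 and 5.83 after 3 or more. Its groups overlapped throughout, and its change of 0.04 ± 0.18 (SE, adjusted p = 0.91) had no stable sign across the settings tried. For Gins2 the change was 0.51 ± 0.17 (SE, adjusted p = 0.0612, and 0.0379 with the replicate block).

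The clamp and the single-strand binding proteins were not called. Pcna, the sliding clamp that tethers the polymerases, was at 12.29 and 12.30 after 3 or more divisions against 11.91 and 11.26 in the control, and it was already at 12.35 and 11.97 after 0 divisions. The change of 0.71 ± 0.25 (SE) had an adjusted p of 0.0709, and of 0.00708 with the replicate block. Rpa1, which coats single-stranded DNA, differed by 0.59 (adjusted p = 0.116, and 0.012 with the block), and Rpa2 by 0.53 (adjusted p = 0.215). Of the clamp loader, Rfc5 rose by 1.42 and Rfc4 by 1.11, whereas Rfc3 differed by 0.29 (adjusted p = 0.437). The call of Rfc4 was lost without replicate 2 of either group. Lig1 and Fen1, which join and trim lagging-strand fragments, rose by 1.40 and 0.91.

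Of the polymerase genes 4 of 5 were called higher, with a median of 1.42. Pola1, the catalytic subunit that starts each strand with primase, was at 6.22 and 5.84 in the control, 7.80 and 7.07 after 0 divisions, 7.66 and 6.83 after 1, 7.68 and 7.25 after 2, and 8.08 and 8.29 after 3 or more. No cohort overlapped the control, and the change after 3 or more divisions was 2.16 ± 0.33 (SE, 4.46-fold, adjusted p = 0.00245). Pole, the catalytic subunit for the leading strand, was at 6.18 and 5.97 in the control, 6.60 and 6.66 after 0 divisions, 6.53 and 6.76 after 1, 6.69 and 6.86 after 2, and 7.38 and 7.62 after 3 or more. Its replicates were close, and the last cohort stood apart (1.42 ± 0.14, SE, adjusted p = 0.00051).

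Prim1, the primase subunit that lays the RNA primer, was at 8.23 and 7.10 in the control, 8.49 and 7.90 after 0 divisions, 8.54 and 7.50 after 1, 8.37 and 8.03 after 2, and 8.42 and 8.69 after 3 or more. Its control arrays lay far apart, and the change of 0.89 ± 0.44 (SE) had an adjusted p of 0.185, and of 0.0461 with the replicate block. Pole2, the second subunit of polymerase epsilon, was at 6.86 and 5.62 in the control, 7.07 and 6.66 after 0 divisions, 7.18 and 6.40 after 1, 7.16 and 6.99 after 2, and 7.61 and 7.71 after 3 or more. It shared the wide control pair but was called (1.42 ± 0.40, SE, adjusted p = 0.0316), and the change was 0.80 without replicate 2 of the control, which ended the call, as did leaving out either array of the cohort. The call of Pold1, the catalytic subunit of polymerase delta (1.19 ± 0.26, SE, adjusted p = 0.0112), was also lost without replicate 2 of either group.

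In nucleotide supply 4 of 5 genes were called higher, with a median of 1.91. Rrm2, the small subunit of ribonucleotide reductase whose level follows the cell cycle, was at 9.62 and 9.50 in the control, 10.33 and 10.67 after 0 divisions, 10.64 and 10.62 after 1, 10.77 and 10.60 after 2, and 11.37 and 11.57 after 3 or more. The groups stood apart at both ends, and its adjusted p of 0.000239 was the lowest of the 34 genes (1.91 ± 0.15, SE, 3.76-fold). Rrm1, the large subunit, was at 9.24 and 9.21 in the control, 9.66 and 9.79 after 0 divisions, 9.52 and 9.47 after 1, 9.82 and 9.54 after 2, and 9.76 and 9.91 after 3 or more. Each cohort lay above the control and the arrays of 1 division below those of the other cohorts, and Rrm1 rose by 0.61 ± 0.13 after 3 or more divisions (SE, 1.53-fold, adjusted p = 0.00947), a call lost without replicate 2 of that cohort.

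Dut, which removes dUTP before it can enter DNA, was at 7.51 and 7.29 in the control, 8.42 and 8.18 after 0 divisions, 8.26 and 7.98 after 1, 8.72 and 8.42 after 2, and 9.32 and 9.66 after 3 or more. The control lay lowest and the last cohort highest (2.09 ± 0.18, SE, 4.25-fold, adjusted p = 0.000345). Tk1, the thymidine kinase of the salvage route, was at 6.80 and 5.82 in the control, 7.91 and 7.75 after 0 divisions, 7.95 and 7.39 after 1, 8.20 and 8.0 after 2, and 8.33 and 8.44 after 3 or more. All cohorts lay above the control, and the change was 2.08 ± 0.31 after 3 or more divisions (SE, 4.23-fold, adjusted p = 0.0021). Tyms, which makes thymidylate, was at 4.08 and 4.23 in the control, 4.31 and 4.18 after 0 divisions, 4.46 and 4.40 after 1, 4.34 and 4.12 after 2, and 4.50 and 4.25 after 3 or more. That probe set was dim, at the 27.6 percentile of mean level over all genes, and its change of 0.22 ± 0.14 (SE) was not called (adjusted p = 0.296).

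Other probe sets of the same genes were compared where the array carried them, since the brightest need not be the best reporter. The 34 genes had 73 probe sets, with a single one for 8 genes and several for 26. Of the 39 not used above, 18 were called higher after 3 or more divisions and none lower in a limma fit over 34945 probe sets. The share called over all probe sets was not counted in that fit, so the 18 have no background beside them. Of the 39, 14 had a mean below 5. Signs differed between probe sets of Orc1, Cdc45, Gins3, Pole2, Rrm1 and Tyms. For Cdc45, Pole2 and Rrm1 the probe set of opposite sign was dim, with means of 4.75, 3.36 and 3.48. Orc1, Rpa1 and Tyms each had another probe set called while the one used was not. For Rpa1 it was at 10.26 and 10.25 after 3 or more divisions against 9.72 and 9.23 in the control (adjusted p = 0.0251). For Tyms it was at 4.39 and 4.41 against 3.95 and 3.84 (adjusted p = 0.0402).

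**Figure D3:**
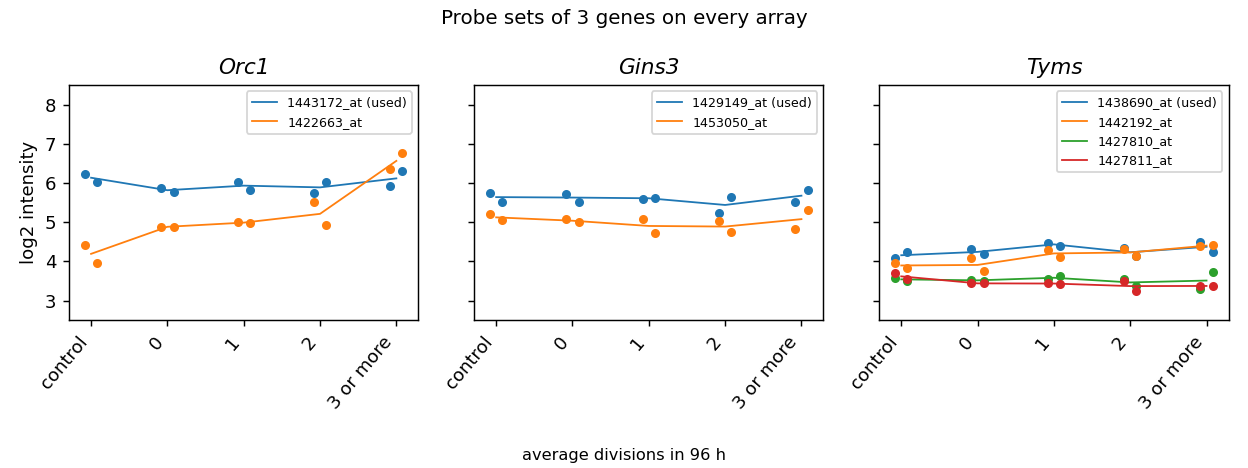
Log2 intensity of every probe set of Orc1, Gins3 and Tyms on each array, by average divisions, with points for arrays and lines through the group means. The unused Orc1 probe set lies at 3.97 to 4.41 in the control and at 6.36 to 6.77 after 3 or more divisions, whereas the used one stays between 5.75 and 6.30.

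In the cohort labelled with 0 divisions replication genes already lay above the starved control on most arrays, although few passed the test. The median change was 0.62, against 0.00 over all genes, 32 of the 34 were above 0 (49.1% of all genes), and in 26 both cohort arrays lay above both control arrays (21.4% of all genes). Only Mcm7 was called, at 11.18 and 11.06 against 10.15 and 10.13 (0.98 ± 0.14, SE, adjusted p = 0.0496), while 0.22% of all genes were called higher and 0.077% lower. That call was lost without any one of the 4 arrays, and calls over all genes fell in those fits too. At an unadjusted p under 0.05, 22 of the 34 were higher, against 7.29% of all genes. With the replicate number as a block 13 of the 34 were called higher, against 2.36% of all genes. These were Cdc6, Cdt1, Gmnn, Mcm3, Mcm5, Mcm6 and Mcm7 of licensing, Cdc45 and Rfc5 of the fork, Pola1, and Rrm2, Dut and Tk1. The largest differences in that list were 1.52 ± 0.31 for Tk1 (adjusted p = 0.0992, and 0.0167 with the block), 1.40 ± 0.33 for Pola1 (0.139, and 0.0184) and 1.39 ± 0.42 for Mcm6 (0.235, and 0.0429).

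After 1 division Mcm7 (1.08 ± 0.14, SE) and Rrm2 (1.07 ± 0.15) were called higher than in the control, both with an adjusted p of 0.0236, against 0.94% of all genes, and both calls were lost without any one of the 4 arrays. The median change of the 34 genes was 0.53, against 0.00 over all genes, and 12 were called with the block, against 4.47% of all genes. After 2 divisions 13 were called higher, against 4.07% of all genes, and the median was 0.74, against 0.01. The called genes were Cdc6, Cdt1, Gmnn, Mcm2, Mcm5 and Mcm7 of licensing, Cdc45 and Gins1 of the fork, Pola1 and Pole, and Rrm2, Dut and Tk1. Among the called genes Tk1 differed most, by 1.79 ± 0.31 (SE, 3.46-fold, adjusted p = 0.0181), followed by Mcm5 with 1.51 ± 0.23 (2.85-fold, adjusted p = 0.0135). The epithelial sum was 2095 and 1377 after 2 divisions against 251 and 284 in the control, with 4 of the 10 markers higher, and the Actb difference was 0.46 and 0.50 against 0.26 and 0.26. With the block 22 were called, against 9.11% of all genes, the added ones being Mcm3, Mcm6, Mcm10, Pcna, Rfc4, Rfc5, Fen1, Lig1 and Rrm1. Of these, Mcm10 stood at 0.96, but at -0.057 with unmarked probe sets alone (adjusted p = 0.921), where its probe set was dim (mean 4.12). No gene of the 34 was called lower in any of these comparisons, against 0.302% of all genes after 1 division and 2.06% after 2. The 4 comparisons share the control arrays, so their counts are not independent. Without one array, the median change of the 34 genes ran from 0.29 to 0.83 after 1 division and from 0.50 to 1.09 after 2. Most of the calls after 2 divisions were lost in at least one of those fits. Calls over all genes fell in each of them as well.

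Among the induced cohorts of 0, 1 and 2 divisions, which share a set and by their labels differ in divisions only, the steps were small. From 0 to 1 division none of the 34 genes was called by limma with or without the block, and neither was any of the 18193 genes. None of the 34 had an unadjusted p under 0.05 (2.74% of all genes did). Of the 34, 27 lay below 0, with a median of -0.15 (51% of all genes were above 0). All 13 fork genes were lower after 1 division than after 0, Rpa2 by the most (-0.48 ± 0.28, SE). The median was 0.08 without replicate 2 of the cohort of 1 division. From 1 to 2 divisions again none of the 34, and none of the 18193 genes, was called with or without the block. Of the 34, 31 lay above 0 (51.5% of all genes) with a median of 0.19. An unadjusted p under 0.05 was found for 3 (2.61% of all genes), namely Dut (0.45 ± 0.18), Gins1 (0.45 ± 0.19) and Gmnn (0.43 ± 0.19). From 0 to 2 divisions none was called with or without the block, against 0.055% of all genes called higher without it and 0.748% with it, none had an unadjusted p under 0.05 (7.76% of all genes), and the median was 0.10. The steps share cohorts, so a cohort that lay low lowers one step and raises the next.

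The cohort of 3 or more divisions stood above that of 2 in 33 of the 34 genes (54% of all genes), with a median change of 0.52 against 0.03 over all genes. Called higher were 5 and lower none, against 3.46% and 2.52% of all genes, and in 27 both arrays of 3 or more divisions lay above both arrays of 2 (30.8% of all genes). Cdc6 rose by 0.99 ± 0.22 (SE, adjusted p = 0.042), Dut by 0.92 ± 0.18 (0.0347), Rrm2 by 0.78 ± 0.15 (0.0301), Pole by 0.72 ± 0.14 (0.0338) and Cdc45 by 0.60 ± 0.12 (0.0315). Rfc3 was the gene below 0, at -0.17. With the block 14 were called, against 10.1% of all genes, adding Cdt1, Gmnn, Mcm3, Mcm5, Mcm7, Mcm10, Gins1, Rfc5 and Fen1. No call remained without any one of the 4 arrays. Calls over all genes fell in those fits as well, each of which leaves 1 array in a group. These cohorts also lie in different sets. Between the same cohorts the epithelial sum was 5485 and 6296 against 2095 and 1377, with 2 of the 10 markers higher, and the fibroblast sum was 99060 and 84422 against 116935 and 127202, with 2 of the 12 lower. Counting rises only, the largest successive step was from the control to 0 divisions for 25 genes, from 2 to 3 or more for 8, and from 0 to 1 for Tyms. The steps from the control to 0 and from 2 to 3 or more both cross the sets of arrays. The first of them also changes induction and serum, and these cannot be told apart. The same count was not made over all genes.

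**Figure D4:**
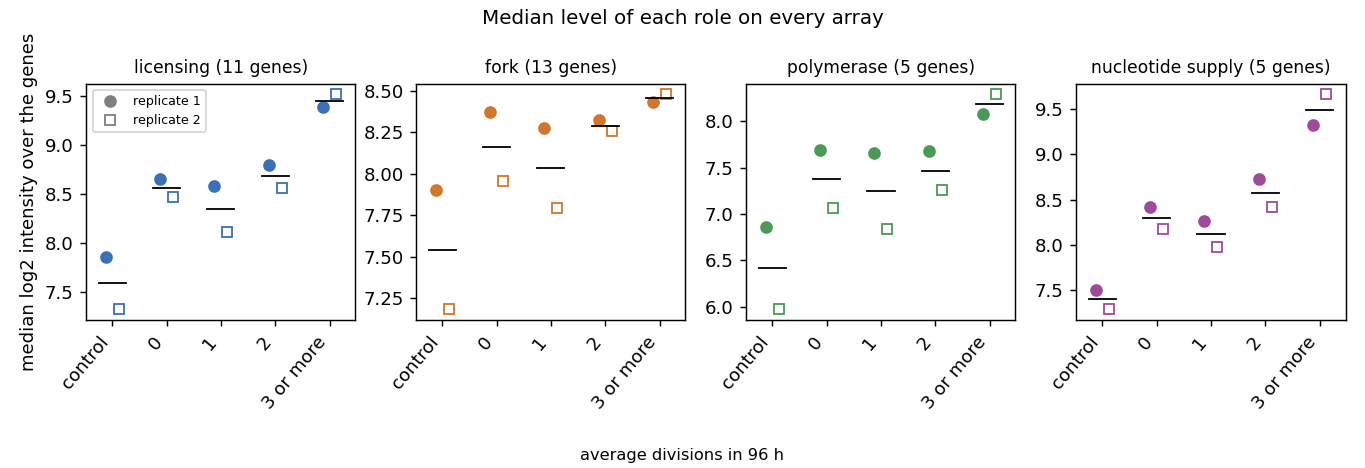
Median log2 intensity of each role's genes on every array, by average divisions. Circles are replicate 1, open squares replicate 2 and lines the mean of both, and the vertical scales differ between panels. Licensing runs from 7.32 to 7.86 in the control and from 9.38 to 9.52 after 3 or more divisions. The fork medians lie between 7.79 and 8.37 over 0 to 2 divisions, against 8.43 and 8.48 after 3 or more.

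The replication genes also differed between the replicates of a group. Replicate 1 exceeded replicate 2 in 33 of 34 genes in the control, with a median difference of 0.49 on the log2 scale and a range from -0.14 to 1.24. It did so in 29 genes after 0 divisions (median 0.19), in 29 after 1 (0.43) and in 24 after 2 (0.18). After 3 or more divisions the order was turned, with 4 genes higher in replicate 1 and a median of -0.20. Over all genes between 46.7% and 48.7% were higher in replicate 1 in each group. The widest control differences were those of Mcm6, at 8.89 and 7.65, and Pole2, at 6.86 and 5.62. This spread enters the standard errors above. The block takes out only an offset that the groups share, so the turned order after 3 or more divisions remains in the blocked values.

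**Figure D5:**
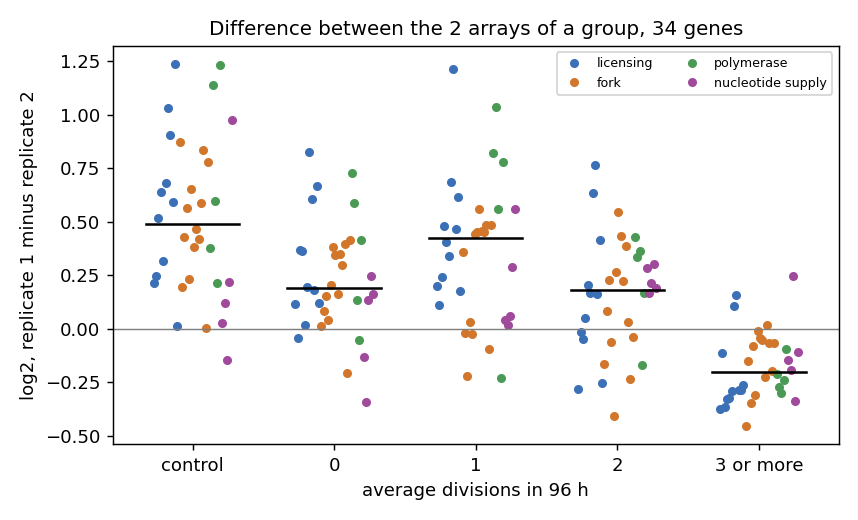
Log2 intensity on replicate 1 minus that on replicate 2 for each of the 34 genes, by average divisions, with colours for roles and a line at the median. Points lie mainly above 0 from the control to 2 divisions and mainly below 0 after 3 or more.

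A further 40 replication genes, of which 39 were measured, were counted beside the 34. After 3 or more divisions 24 of the 39 were higher than in the control and 2 were lower, against 15.9% and 11.7% of all genes, with a median of 0.71. The called rises were led by Wdhd1, a fork scaffold protein, at 7.79 and 8.09 against 6.13 and 5.54 (2.11 ± 0.23, SE, adjusted p = 0.000618). Dbf4, the activator of the kinase that fires origins, was at 9.10 and 9.38 against 7.31 and 7.16 (2.01 ± 0.17, adjusted p = 0.00029). Its kinase Cdc7 rose by 1.86 ± 0.29 (adjusted p = 0.00248) and the helicase Mcm8 by 1.86 ± 0.22 (adjusted p = 0.000867). The genes that fell were Pole4, a small subunit of polymerase epsilon, at 8.53 and 8.80 against 9.35 and 9.13 (-0.57 ± 0.14, adjusted p = 0.0165), and Tk2, at 7.09 and 7.05 against 7.69 and 7.75 (-0.65 ± 0.12, adjusted p = 0.00626). Tk2 is the thymidine kinase of mitochondria, and its change was opposite in sign to that of the cytosolic Tk1. Of the 39, none was called higher than in the control by limma after 0 divisions, with 15 higher at an unadjusted p under 0.05 (7.29% of all genes) and 6 with the block (2.36%). After 1 division none was called, with 12 at an unadjusted p under 0.05 (8.79% of all genes) and 5 with the block (4.47%). After 2 divisions 7 were called (4.07%), and 12 with the block (9.11%). Between 3 or more and 2 divisions 8 were higher (3.46%), and with the block 16 were higher (10.1%) and 1 lower (8.85%).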

How the data were processed

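RNA levels came from 10 Affymetrix arrays in 5 labelled groups of 2. The table deposited by the authors holds linear intensity values of 45101 probe sets, between 5.7 and 26572. RMA is listed in the submitters' processing notes for 4 arrays, those of the earlier set, with no version, and the sources used here do not give the tool for the other 6. Without detection calls the background level is unknown, and the number of arrays limits the precision.

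Intensities were floored at 1, which moved 0 values, taken to log2 and quantile normalized over the 10 arrays. The platform's gene table gave 1 gene for 34945 probe sets, several for 932 and none for the rest, and the RefSeq gene table held 34741 of these gene IDs. The probe set with the highest mean represented its gene, which left 18193 genes. limma 3.58.1 in R 4.3.3 was fitted with lmFit and eBayes to all 10 arrays, with group as the only factor and 5 residual degrees of freedom. Calls used an adjusted p under 0.05. The fit was tested on simulated data with independent noise on every array. Those data held no offset between replicates and no difference between sets, so that test cannot speak for either.

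Whether replicate numbers pair arrays across groups was checked from the values. Over 9096 brighter genes, an array's deviation from its group mean correlated with that of the array of the same number in another group, with r between 0.48 and 0.87 for the 10 pairs of groups, so they were treated as pairs, a choice that rests on the data and not on the labels. The blocked fit left 4 residual degrees of freedom. The alternatives were other scalings, a floor of 16, other choices of genes and probe sets, the block, eBayes with trend and robust settings, only the arrays compared, and leaving out each array. A fit at the level of probe sets and one of each set of arrays apart were chosen after seeing the data.

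Values on every array are given for the 2 members of each role with the largest change after 3 or more divisions and the 1 with the smallest, for members below 0 there, called after 0 divisions or between cohorts, or with probe sets of differing sign, and for a few others chosen after their values were seen. The members, roles, marker lists and the list of further replication genes were chosen with earlier results of these data known. Promoters are from RefSeq, and 5 members had no entry.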

Additional observations from a re-analysis of the deposited data

How the results depend on the processing

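Over all settings the median change of the 34 genes kept its sign in every comparison except the step from 0 to 1 division, and its values without one array ran from 1.06 to 1.58 for 3 or more divisions against the control, 0.40 to 0.97 for 0 divisions, 0.29 to 0.83 for 1, 0.50 to 1.09 for 2, -0.34 to 0.08 for 1 against 0, 0.05 to 0.43 for 2 against 1, 0.01 to 0.22 for 2 against 0, and 0.39 to 0.61 for 3 or more against 2. The count of genes called higher after 3 or more divisions than in the control stayed within 1.5 times of 24 and was 29 with the replicate block. Of the 24 calls, 17 were kept in every setting that tested the gene. Those lost in at least one were Orc6, Mcm3, Mcm10, Rfc4, Pold1, Pole2 and Rrm1. Among the 17, Cdc6, Mcm7, Fen1 and Pole had no unmarked probe set and were not tested in that setting. Cdc6, Cdc45 and Gins1 were likewise left out where only genes above the median level were used. The block ended no call, and beside the calls given in the report it changed none of the 34.

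The smaller counts moved, and the cause was not tested beyond the fewer arrays or genes of some settings. Calls over all genes, in either direction, moved as well. Against the control they were 54 after 0 divisions, 226 after 1 and 1114 after 2, and 1087 for 3 or more against 2. In the same order they became 25, 144, 843 and 616 with a floor of 16. With only the 4 arrays compared they became 0, 0, 86 and 667, and with the block 591, 1277, 2827 and 3449. Mcm7, Cdc6 and Pole had no unmarked probe set, so the counts with unmarked probe sets leave them out. For 0 divisions against the control the 1 call became 0 with arrays centred on their medians, with a floor of 16, with unmarked probe sets and with only the 4 arrays compared, 2 with only genes above the median level, with the mean of all probe sets and with trend and robust settings, 13 with the replicate block, and 0 to 1 without one array. For 1 division the 2 calls became 1 with the mean of all probe sets and with unmarked ones, 0 with only the 4 arrays, 12 with the block, and 0 to 1 without one array. For 2 divisions the 13 calls became 6 with a floor of 16, 8 with unmarked probe sets, 0 with only the 4 arrays, 22 with the block, and 1 to 13 without one array. For 3 or more against 2 divisions the 5 calls became 2 with a floor of 16, with unmarked probe sets and with only the 4 arrays, 14 with the block, and 0 without any one array. Where an array was left out, the lone array of its group was assumed to vary like the other groups, and calls over all genes fell in each of these comparisons.

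Signs turned for 2 genes near 0 and for Mcm10. Orc1 after 3 or more divisions became 0.016 with median centring, 1.18 with the mean of all probe sets, 0.09 without replicate 1 of the control and 0.17 without replicate 1 of the cohort, within a range of -0.20 to 0.17 without one array. Gins3 became -0.026 without quantile normalization, -0.0044 with the mean of all probe sets, -0.08 without replicate 2 of the control and -0.12 without replicate 2 of the cohort, within a range of -0.12 to 0.19. Mcm10 after 2 divisions, at 0.96 in the fit reported, became -0.057 with unmarked probe sets, on a dim one (mean 4.12). Dim probe sets, with no detection calls, limit the genes near background, such as Tyms.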
